A study of Zea mays subsp. mays with 11 samples.

Results

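The on-off block is a set of 7 maize PHAS loci, 5 of the 21-PHAS class and 2 of the premeiotic 24-PHAS class. All were low in some libraries of a group, most of them nearly silent there, and abundant in others. They were B73_21PHAS_7645, B73_24PHAS_7713, B73_24PHAS_7718, B73_21PHAS_7738, B73_21PHAS_7740, B73_21PHAS_7744 and B73_21PHAS_7757. These 7 of the 659 PHAS loci measured were chosen by their abundance (CPM, reads scaled to library size) in the 11 libraries, low in some and high in others of the same group, so that spread is given as a description and carries no test. All 7 lie on chromosome 1 between positions 290278132 and 291858704 of B73 RefGen_v5, a span of 1.58 Mb.

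The data are 11 small RNA libraries from maize anthers, made with TraPR, a column method that recovers small RNAs bound inside Argonaute proteins. ago18HM plants were homozygous mutant at AGO18a, AGO18b and AGO18c, and ago18HT plants were their siblings heterozygous at all 3 genes. The AGO18a and AGO18b alleles are CRISPR-Cas9 frameshifts and the AGO18c allele is a Mu transposon insertion, so every ago18HT plant also carried each mutant allele in 1 copy. There were 3 ago18HM-5mm, 3 ago18HT-5mm, 2 ago18HM-2mm and 3 ago18HT-2mm libraries, named by genotype and anther length. The labels describe the genetic background of all libraries as mostly B73, and the replicates came from distinct plants. The table holds only PHAS loci, so no marker gene was at hand with which to check the tissue label or any genotype label.

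PHAS loci are transcribed into long noncoding precursors, which are copied into double-stranded RNA and diced at regular intervals into phased small interfering RNAs (phasiRNAs). In maize anthers, cleavage guided by miR2118 starts most 21-nt phasiRNAs, which are diced by DCL4, and cleavage guided by miR2275 with dicing by DCL5 gives the 24-nt phasiRNAs of meiosis. The premeiotic 24-PHAS loci are a separate class of 24-nt loci active early in the anther. A phasiRNA acts only once it is loaded into an Argonaute, and AGO18 is an Argonaute of grasses known to bind phasiRNAs.

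The major RNA of a locus is the phasiRNA that the study's locus table lists as its most abundant product. The 4 members whose major RNA resembled no other member's are shown first, with the 5′ base in capitals because plant Argonautes sort small RNAs partly by that base.
B73_21PHAS_7645: Ggaaugucucagucgcaguag
B73_24PHAS_7713: Augcaagcaguuaagcaaggauuc
B73_24PHAS_7718: Aauuguagguaguaauauagguug
B73_21PHAS_7757: Aucugaguuuguguuugguug

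B73_21PHAS_7738 and B73_21PHAS_7740 had the same major RNA, and so did B73_21PHAS_7744 and B73_21PHAS_7747, a locus between the members that is not one of them. These 2 sequences, and those of the nearby loci B73_21PHAS_7751 and B73_21PHAS_7752, form a family. They are shown because members and non-members share it. Capitals mark the 11 of 21 positions that are identical in all 4 sequences.
B73_21PHAS_7738 and B73_21PHAS_7740: AcAgGAcaACgcugAGGaCUg
B73_21PHAS_7744 and B73_21PHAS_7747: AuAgGAugACucuaAGGgCUa
B73_21PHAS_7751: AuAcGAugACaccgAGGaCUg
B73_21PHAS_7752: AuAcGAcaACauugAGGaCUa

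Any pair of the 4 sequences was identical at 14 to 16 of the 21 positions. Of 429 major RNAs of 21 nt, 6 held all 11 shared bases, and these were the 6 loci named here, 0 of them elsewhere in the genome. The positions were read from these sequences themselves, so the count is a description. Across the table, 43 of 659 loci (6.53%) shared their major RNA with another locus, 3 of the 7 members among them. The 5′ base was A at 6 of the 7 members, near the 82.2% of all loci, and G at B73_21PHAS_7645. The 5 21-PHAS members were 731 to 1721 bp long, around a median of 1373 bp, and the median of all 430 21-PHAS loci was 939 bp. The 2 24-PHAS members were 2323 and 1846 bp long, against a median of 2981 bp over the 75 premeiotic 24-PHAS loci.

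The members were placed as follows in B73 RefGen_v5. B73_21PHAS_7645 (chr1:290278132-290278862, minus strand) was intergenic, 12.9 kb from LOC118476182. B73_24PHAS_7713 (chr1:291008935-291011257, plus strand) lay within the span of the protein-coding gene LOC103645671 (chr1:290938533-291012824), and it was the only member that touched an annotated gene. B73_24PHAS_7718 (chr1:291214475-291216320, plus strand) was intergenic, 34.8 kb from the nearest gene. B73_21PHAS_7738 (chr1:291425239-291426959, no strand given) and B73_21PHAS_7740 (chr1:291476234-291477606, minus strand) were the most remote, 122.2 kb and 125.5 kb from any RefSeq gene. B73_21PHAS_7744 (chr1:291585745-291586562, minus strand) lay 16.6 kb from LOC103644130. B73_21PHAS_7757 (chr1:291857249-291858704, plus strand) lay 1.32 kb from LOC100281970. In all, 43 RefSeq genes fell in the span of the members, 24 of them protein-coding.

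Abundance is given in CPM as deposited, the reads counted at a locus scaled to a fixed total per library. All values were whole multiples of what 1 read was worth in their library, which allowed the reads behind each value to be recovered. The 11 libraries held 574309 to 10738654 reads in PHAS loci. The denominators of the CPM values were 5419067 to 17805878 reads at 5 mm and 33076189 to 53038060 reads at 2 mm. A value of 3 reads was therefore worth 0.168 to 0.554 CPM at 5 mm and 0.0566 to 0.0907 CPM at 2 mm. All intervals given here are 95% Poisson or exact binomial intervals on reads and cover counting error only.

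The same 4 libraries were the 4 highest at all 7 members. They were ago18HM-5mm replicate 1, ago18HT-5mm replicate 3, ago18HM-2mm replicate 2 and ago18HT-2mm replicate 3, that is, 1 library in each of the 4 groups. Each group thus held 1 library with higher and 1 or 2 libraries with lower values, and the replicate numbers of the 4 libraries were not the same. Of all 659 loci, 19 (2.88%) had these 4 libraries as their 4 highest. Since the members were chosen for this pattern, their share of 7 of 7 is not read against that background.

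B73_21PHAS_7740 had the widest spread within groups of all 659 loci. Its abundance was 275, 2.95 and 2.40 CPM in ago18HM-5mm replicates 1, 2 and 3, and 2.36, 2.37 and 208 CPM in ago18HT-5mm replicates 1, 2 and 3. At 2 mm it had 0.622 and 130.1 CPM in ago18HM-2mm replicates 1 and 2, and 0.641, 0.786 and 124 CPM in ago18HT-2mm replicates 1, 2 and 3. The 4 high values lay within 124 to 275 CPM and the other 7 below 3 CPM, with nothing in between. The 4th highest library exceeded the 5th highest 41.8-fold.

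B73_21PHAS_7738, which makes the same major RNA, followed the same order. It had 298, 2.77 and 4.34 CPM in the ago18HM-5mm replicates, against 6.14, 3.71 and 205 CPM in the ago18HT-5mm replicates. In ago18HM-2mm it had 10.5 and 168 CPM, against 3.66, 8.19 and 161 CPM in ago18HT-2mm. The gap between its 4th and 5th highest library was 15.2-fold. Its low values were not uniform, and the highest of them, in ago18HM-2mm replicate 1, rested on 559 reads.

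B73_21PHAS_7757, at the far end of the span, had the sharpest gap, 56.0-fold between the 4th and 5th highest library. Its values were 98.2, 0.923 and 0.749 CPM in ago18HM-5mm and 1.10, 1.34 and 83.1 CPM in ago18HT-5mm. They were 0.0754 and 78.7 CPM in ago18HM-2mm and 0.160, 0.0907 and 75.0 CPM in ago18HT-2mm. The 4 high values lay within 75.0 to 98.2 CPM, although they came from different genotypes and lengths. The low values at 2 mm rested on 3 to 7 reads.

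B73_24PHAS_7713 was 1 of the 2 premeiotic 24-PHAS members. It had 87.3, 1.11 and 0.449 CPM in ago18HM-5mm, and 1.89, 1.03 and 39.5 CPM in ago18HT-5mm. The 2 mm libraries gave 0.0377 and 78.6 CPM in ago18HM-2mm, and 0.137, 0.151 and 56.1 CPM in ago18HT-2mm. Its gap was 20.9-fold, and its lowest value was 2 reads in ago18HM-2mm replicate 1. Within ago18HM-2mm the higher library exceeded the lower 2085-fold, with an interval of 577 to 17228 set by those 2 reads.

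B73_24PHAS_7718, the other 24-PHAS member, was the next locus of the table along the chromosome and ran in parallel. ago18HM-5mm replicates had 48.5, 1.11 and 0.899 CPM, and ago18HT-5mm replicates had 1.26, 0.618 and 25.7 CPM. ago18HM-2mm replicates had 0.0566 and 44.3 CPM, and ago18HT-2mm replicates had 0.0915, 0.0605 and 32.1 CPM. The gap between its 4th and 5th highest library was 20.4-fold. In the 4 highest libraries B73_24PHAS_7713 exceeded B73_24PHAS_7718 by a steady factor, 1.80 in ago18HM-5mm replicate 1, 1.54 in ago18HT-5mm replicate 3, 1.78 in ago18HM-2mm replicate 2 and 1.74 in ago18HT-2mm replicate 3.

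B73_21PHAS_7645, at the near end of the span, differed among its high libraries more than any other member. Abundance reached 123 CPM in ago18HM-5mm replicate 1, with 0.738 and 0.749 CPM in the other replicates of that group, against 1.42, 0.103 and 21.8 CPM in ago18HT-5mm. It was 0.283 and 18.4 CPM in ago18HM-2mm, against 0.160, 0.212 and 21.2 CPM in ago18HT-2mm. Of its 4 highest libraries, 1 therefore stood near 123 CPM and 3 at 18.4 to 21.8 CPM. The lowest value, in ago18HT-5mm replicate 2, was a single read, which was also the lowest read number of any member.

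B73_21PHAS_7744 was the mildest member and never approached zero. It had 123, 7.38 and 5.09 CPM in ago18HM-5mm and 6.61, 3.71 and 90.2 CPM in ago18HT-5mm. It had 9.99 and 68.6 CPM in ago18HM-2mm and 6.77, 12.3 and 47.3 CPM in ago18HT-2mm. Its gap between the 4th and 5th highest library was 3.86-fold, and its lowest value rested on 34 reads. The non-member B73_21PHAS_7642, just left of the span, had a wider gap of 4.50-fold. The median gap over all 659 loci was 1.05-fold.

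**Figure D1:**
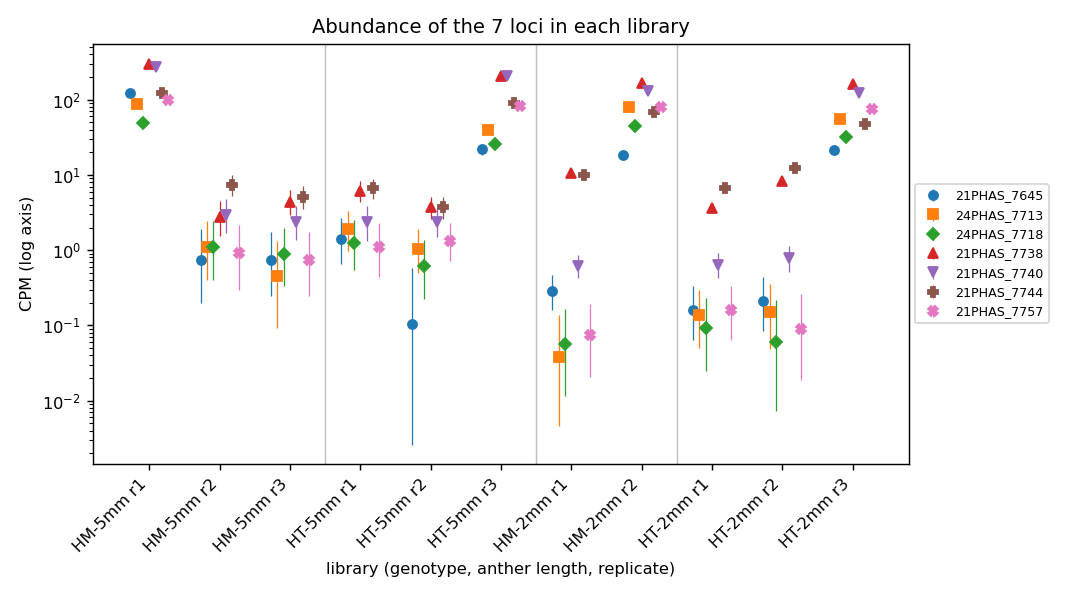
CPM of the 7 loci (log axis) in each of the 11 libraries, grouped as ago18HM-5mm, ago18HT-5mm, ago18HM-2mm and ago18HT-2mm, with lines for 95% Poisson intervals on reads. All 7 loci have their highest value of a group in the same 1 library of that group. The 24-PHAS loci, 21PHAS_7740, 21PHAS_7645 and 21PHAS_7757 fall below 1 CPM in the remaining 2 mm libraries.

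A value was called high at 25% or more of the locus's highest library, low at 5% or less, and intermediate between. Of the 77 values of the 7 members, 25 were high, 8 intermediate and 44 low, and 0 were at 0. The 5 members 24PHAS_7713, 24PHAS_7718, 21PHAS_7738, 21PHAS_7740 and 21PHAS_7757 had 4 high and 7 low values each, with 0 intermediate. B73_21PHAS_7645 had 1 high, 3 intermediate and 7 low values, and B73_21PHAS_7744 had 4 high, 5 intermediate and 2 low values.

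Summed over the 7 members, abundance was 1053, 17.0 and 14.7 CPM in ago18HM-5mm replicates 1, 2 and 3, against 20.8, 12.9 and 674 CPM in ago18HT-5mm replicates 1, 2 and 3. The sum was 21.6 and 587 CPM in ago18HM-2mm replicates 1 and 2, against 11.6, 21.8 and 516 CPM in ago18HT-2mm replicates 1, 2 and 3. Each group held 1 library at 516 CPM or more and no other above 21.8 CPM. The part of depth in these sums was not tested. ago18HM-5mm replicate 1 had the largest denominator of the 5 mm libraries (17805878), whereas ago18HT-5mm replicate 3 (7472905), ago18HM-2mm replicate 2 (36890255) and ago18HT-2mm replicate 3 (35607049) each lay below another library of its own group. In these bulk libraries, fewer cells that make a phasiRNA and less of it per cell cannot be told apart.

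Within a group, the highest library exceeded the second highest 16.7- to 164-fold in ago18HM-5mm over the 7 members, and 13.6- to 87.9-fold in ago18HT-5mm. In ago18HM-2mm the fold ran from 6.87, at B73_21PHAS_7744, to the 2085 of B73_24PHAS_7713 given above, with a median of 209. In ago18HT-2mm it ran from 3.86 to 468, with a median of 157.

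The size of the low values differed between anther lengths in a way that varied by locus. Among the 7 libraries outside the 4 highest, B73_21PHAS_7740 had 2.36 to 2.95 CPM at 5 mm and 0.622 to 0.786 CPM at 2 mm. B73_24PHAS_7713 had 0.449 to 1.89 CPM at 5 mm and 0.0377 to 0.151 CPM at 2 mm, and B73_24PHAS_7718 had 0.618 to 1.26 CPM at 5 mm and 0.0566 to 0.0915 CPM at 2 mm. B73_21PHAS_7757 had 0.749 to 1.34 CPM at 5 mm and 0.0754 to 0.160 CPM at 2 mm. The other 3 members did not share this order. B73_21PHAS_7744 had 3.71 to 7.38 CPM at 5 mm and 6.77 to 12.3 CPM at 2 mm, and B73_21PHAS_7738 had 2.77 to 6.14 CPM at 5 mm and 3.66 to 10.5 CPM at 2 mm. The values of B73_21PHAS_7645 overlapped, with 0.103 to 1.42 CPM at 5 mm and 0.160 to 0.283 CPM at 2 mm. In reads, the low values of the 24-PHAS members were 3 to 12 per library at 5 mm and 2 to 6 at 2 mm, although the 2 mm libraries were deeper. The part of depth in these differences was not tested.

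Per length of locus, the members also differed in level. In ago18HM-5mm replicate 1, where each was at its highest, abundance per kb of locus was 201 CPM at B73_21PHAS_7740, 173 CPM at B73_21PHAS_7738, 168 CPM at B73_21PHAS_7645 and 151 CPM at B73_21PHAS_7744. It was 67.5 CPM per kb at B73_21PHAS_7757 and lowest at the 24-PHAS members, with 37.6 CPM per kb at B73_24PHAS_7713 and 26.3 CPM per kb at B73_24PHAS_7718.

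The spread within groups was summarised as the SD of log2(CPM + 1) around the group means, pooled over the 4 groups. It was 2.04 to 3.69 for the members, with a median of 3.04, whereas the median over all 659 loci was 0.316. The 27 neighbouring loci, which lie between the first and the last member and were not chosen, had a median SD of 0.320. It ranged from 0.0817 to 1.33 among them. All of them are 21-PHAS loci, and the median over all 430 loci of that class was lower, 0.238. B73_21PHAS_7744 was the member with the smallest SD (2.04), and the closest locus of the region outside the membership was B73_21PHAS_7642, just left of the span, with 1.92. Outside the region, 8 loci had a larger SD than that member, among them B73_24PHAS_26392 (3.52), B73_24PHAS_22200 (3.13) and B73_24PHAS_30723 (3.09), and none of the 8 had the same 4 highest libraries. These 3 were named after their values were seen.

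**Figure D2:**
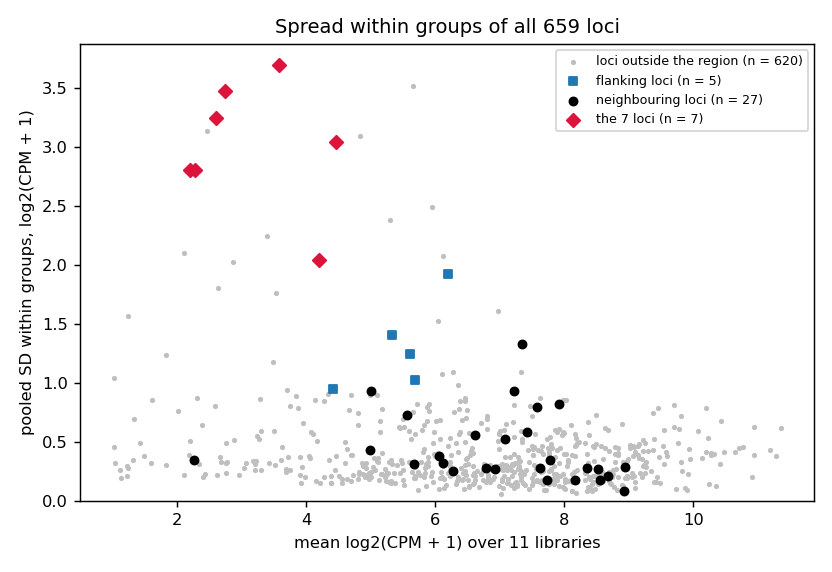
Pooled SD within groups of log2(CPM + 1) against the mean of log2(CPM + 1) over 11 libraries, one point per locus, for all 659 loci. The 7 loci have SDs of 2.04 to 3.69. The 27 neighbouring loci have SDs of 0.0817 to 1.33, around a median of 0.320, and the median of all loci is 0.316.

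Between groups, the members differed by less than their spread within groups. They were chosen for that spread, which widens the SEs below. Counts of calls among them therefore follow in part from the choice and are a description, not a test against the share of all loci. That share also mixes classes, since 154 of the 659 loci are meiotic 24-PHAS loci, a class that holds no member. Most loci that the study reported as reduced in the mutant's TraPR libraries were of that class. Shares by class are not given here. Differences were taken from a limma fit on log2(CPM + 1) over all 11 libraries, with calls at a Benjamini-Hochberg adjusted p under 0.05 and a fold change over 1.5. For the genotype comparison at 5 mm (ago18HM-5mm minus ago18HT-5mm), 0 of 7 members were called, and 23.7% of all 659 loci were. The median log2 difference of the members was 0.22, within a range of -0.10 to 0.88, with SEs of 1.46 to 2.62, and the median of all loci was 0.01. For the genotype comparison at 2 mm (ago18HM-2mm minus ago18HT-2mm), 0 of 7 members were called, against a background of 19.0% of loci. The members' log2 differences were 0.66 to 1.21, with a median of 1.03 and SEs of 1.63 to 2.93, and the median of all loci was -0.02.

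For the length comparison in ago18HM (ago18HM-5mm minus ago18HM-2mm), 0 of 7 members were called, against 24.1% of all loci. The members' log2 differences were -1.28 to 0.53, with a median of -0.42, and the median of all loci was -0.22. For the length comparison in ago18HT (ago18HT-5mm minus ago18HT-2mm), 0 of 7 members were called, against 12.6% of loci, and the members' median log2 difference was 0.45. In each of the 4 comparisons, 0 of 7 members had an unadjusted limma p under 0.05. Of all 659 loci, 199, 206, 245 and 200 had one, in the order of the comparisons above. This contrast, too, follows in part from the choice of members for their spread. voom on the recovered reads also called 0 members, and its share over all loci is not given here. The difference between the genotype differences of the lengths (5 mm minus 2 mm) was called at 0 of 7 members and at 8.19% of loci. With 1 of the 4 highest libraries in every group and SEs of 1.46 or more on the log2 scale, differences of severalfold between groups were not detectable at these loci. The comparisons share groups with one another and are not independent.

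Among the 27 neighbouring loci, the same fit called 1 higher and 0 lower in ago18HM at 5 mm, and the same numbers at 2 mm. Over all 659 loci it called 17 higher and 139 lower at 5 mm, and 13 higher and 112 lower at 2 mm. B73_21PHAS_7751, a non-member of the shared sequence family, rose in ago18HM-5mm over ago18HT-5mm by a log2 difference of 0.78 ± 0.21 (SE, limma adjusted p = 0.0196). B73_21PHAS_7660 rose in ago18HM-2mm over ago18HT-2mm by 0.84 ± 0.20 (SE, limma adjusted p = 0.0131). Between lengths, 2 of the 27 neighbours were called in ago18HM and 3 in ago18HT, against 24.1% and 12.6% of all loci. B73_21PHAS_7652 fell in both, by 1.04 ± 0.25 in ago18HM (SE, limma adjusted p = 0.0180) and by 1.58 ± 0.22 in ago18HT (SE, limma adjusted p = 0.00267). The SDs of these 3 loci, pooled over the 4 groups, were 0.280 or less, but single groups were less even. B73_21PHAS_7660 had 884 and 560 CPM in ago18HM-2mm replicates 1 and 2, against 400, 419 and 360 CPM in ago18HT-2mm. B73_21PHAS_7751 had 103, 69.2 and 70.6 CPM in ago18HM-5mm, against 50.7, 36.7 and 51.4 CPM in ago18HT-5mm.

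The neighbouring loci were next examined one by one along the chromosome. They are the loci of the span that were not picked for a nearly silent state, so their smaller gaps and higher lowest values follow from the choice and are a description. Of the 27 neighbours, 8 had the same 4 highest libraries as the members, as did all 4 loci of the left flank, the loci within 2 Mb to the left of B73_21PHAS_7645. The 1 locus within 2 Mb to the right, B73_24PHAS_7825, did not. Outside this region of 39 loci, 0 of 620 loci had these 4 libraries as their highest, although chromosome 1 alone holds 135 of the 659 loci. All 19 loci with that pattern thus lay in this region, but 7 of them are the members, which define both the 4 libraries and the region. Only the other 12 loci, the 8 neighbours and the 4 left-flank loci, were not chosen by that pattern.

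Anther length moves many loci and can hide such a pattern, so the highest library was also identified within each group. The same library as at the members was highest in all 4 groups at 11 of 27 neighbours, at 4 of 4 left-flank loci and at 6 of the 620 loci outside the region (0.968%). Over all 659 loci the number was 28 (4.25%), members included. B73_21PHAS_7735 shows the difference between the counts. It had 239, 63.1 and 87.6 CPM in ago18HM-5mm and 108, 76.7 and 239 CPM in ago18HT-5mm. It had 261 and 536 CPM in ago18HM-2mm and 248, 263 and 469 CPM in ago18HT-2mm. Its highest library in each group was that of the members, but every 2 mm library exceeded every 5 mm library.

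The neighbours that shared the pattern did so with smaller gaps. Over the 8 with the same 4 highest libraries, the 4th exceeded the 5th highest library 1.09- to 2.26-fold, and none fell to the floor, the lowest value being 14.7 CPM. B73_21PHAS_7754, with the widest of these gaps, had 647, 79.5 and 101 CPM in ago18HM-5mm and 90.7, 65.4 and 363 CPM in ago18HT-5mm. It had 161 and 384 CPM in ago18HM-2mm and 96.7, 81.3 and 366 CPM in ago18HT-2mm. Over the other 19 neighbours the gap was at most 1.28-fold.

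**Figure D3:**
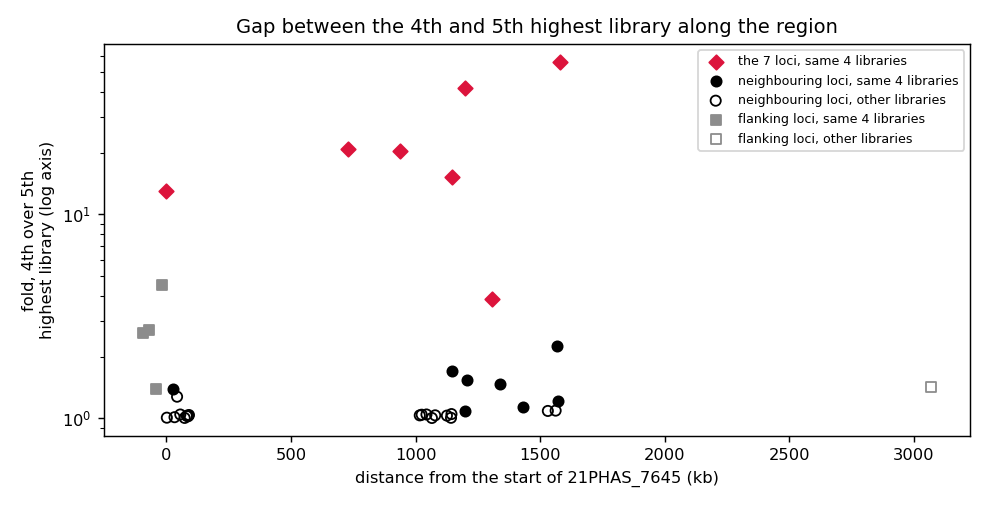
Fold between the 4th and the 5th highest library (log axis) of the 39 loci of the region against distance from the start of 21PHAS_7645 in kb, with filled points for loci whose 4 highest libraries are those of the 7 loci. The 7 loci have gaps of 3.86 to 56.0, the 4 left-flank loci 1.40 to 4.50, and open points stay below 1.5.

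In chromosomal order, runs of loci with these 4 highest libraries alternated with runs of loci without them. The first run held 5 loci over 93.7 kb, B73_21PHAS_7636 to the member B73_21PHAS_7645. The next locus, B73_21PHAS_7646, began 2.10 kb after the start of that member and did not have them, with 512, 544 and 645 CPM in ago18HM-5mm, 540, 500.1 and 705 CPM in ago18HT-5mm, 391 and 594 CPM in ago18HM-2mm, and 303, 365 and 471 CPM in ago18HT-2mm. After B73_21PHAS_7649, which shared the pattern, a run of 8 loci from B73_21PHAS_7650 to B73_21PHAS_7662 did not, and their highest library exceeded their lowest only 1.40- to 3.88-fold. The 2 24-PHAS members formed a run of their own, with no other measured locus between them.

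A second run of 8 loci without the pattern reached from B73_21PHAS_7722 to B73_21PHAS_7735. Their highest library exceeded their lowest 1.72- to 8.49-fold, most at B73_21PHAS_7735, and B73_21PHAS_7722 and B73_21PHAS_7735 had the members' highest library in each group. It was followed by 8 loci with the pattern over 284 kb, B73_21PHAS_7737 to B73_21PHAS_7750, which included 3 members. B73_21PHAS_7751 and B73_21PHAS_7752 interrupted it, the second of them again with the members' highest library in each group, and B73_21PHAS_7754, B73_21PHAS_7755 and the member B73_21PHAS_7757 closed the span.

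**Figure D4:**
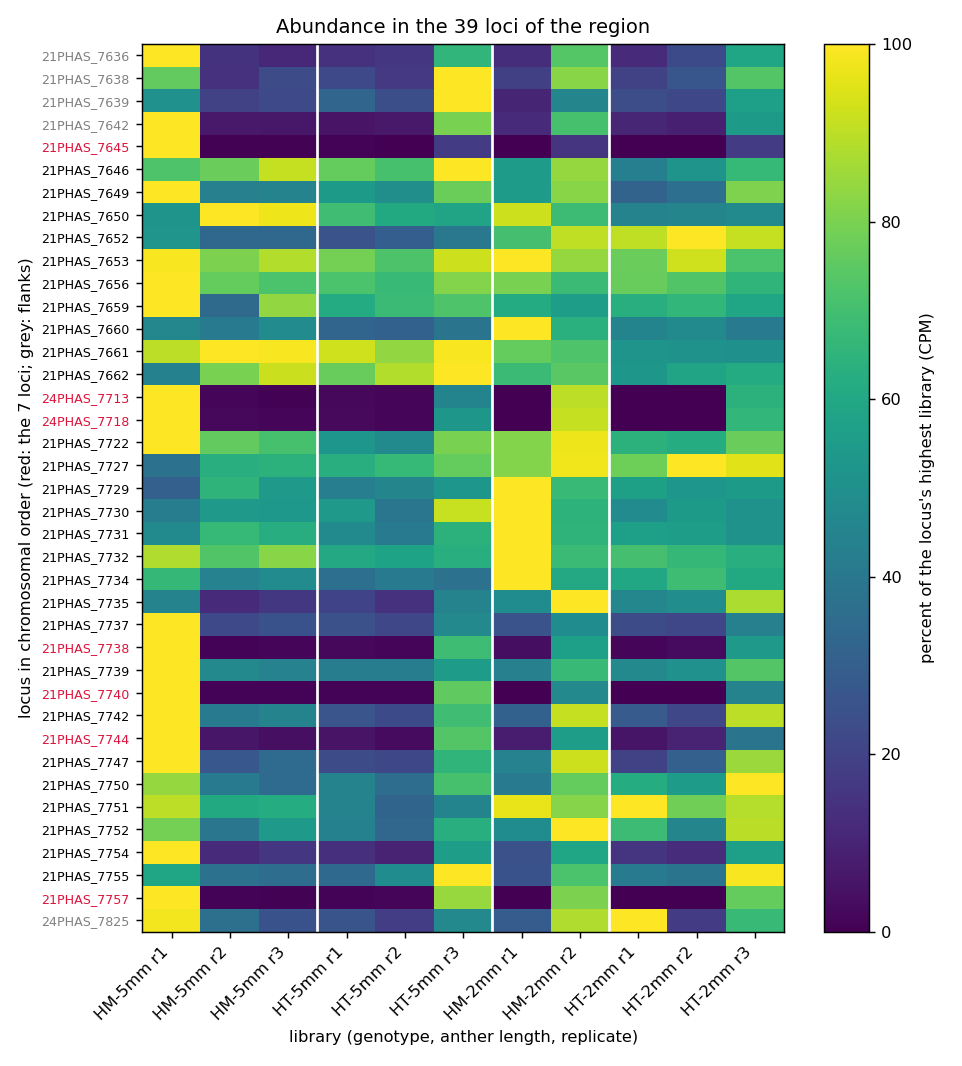
CPM of the 39 loci of the region as percent of each locus's highest library, with loci in chromosomal order from top to bottom and libraries grouped as ago18HM-5mm, ago18HT-5mm, ago18HM-2mm and ago18HT-2mm. The 7 loci (red names) are dark in 7 of 11 libraries, 21PHAS_7645 is bright in 1 only, and 8 neighbours and the 4 left-flank loci are brightest in the same 4 libraries.

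Likeness to the members was also expressed as Pearson's r over the 11 libraries between log2(CPM + 1) of a locus and the mean centred profile of the 7 members. The 11 points share their libraries and depth, and with 4 high and 7 low values r rests on the gap between them, so it is a description only. The 21 pairs of members had r of 0.927 to 0.997. The 5 most alike loci outside the membership were B73_21PHAS_7636 (0.975), B73_21PHAS_7642 (0.962), B73_21PHAS_7638 (0.958), B73_21PHAS_7754 (0.950) and B73_21PHAS_7737 (0.933), all in the region. B73_21PHAS_7642 had 399, 27.7 and 26.2 CPM in ago18HM-5mm, 21.6, 27.8 and 318 CPM in ago18HT-5mm, 48.2 and 283 CPM in ago18HM-2mm, and 43.3, 35.8 and 217 CPM in ago18HT-2mm. Outside the region the highest r was 0.733, at B73_24PHAS_51508 on chromosome 9, and the median over those 620 loci was -0.03.

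Reads of a major RNA that 2 loci share cannot be assigned to 1 of them by sequence. The counting step accepted reads that map to several places, but how many places the mapping step reported per read is not given in the sources used here. Such reads may therefore stand at both loci or at 1 of them, and the ratios of abundance do not tell which. The abundance of B73_21PHAS_7738 over that of B73_21PHAS_7740 was 1.08 in ago18HM-5mm replicate 1, 0.984 in ago18HT-5mm replicate 3, 1.29 in ago18HM-2mm replicate 2, and ago18HT-2mm replicate 3 was close to that. In the other libraries the ratio was 0.938 and 1.81 in ago18HM-5mm, 2.60 and 1.57 in ago18HT-5mm, 16.9 in ago18HM-2mm, and 5.71 and 10.4 in ago18HT-2mm. At 2 mm, B73_21PHAS_7738 held 160 to 559 reads and B73_21PHAS_7740 held 26 to 33 in the libraries with low values.

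B73_21PHAS_7747, which shares the major RNA of B73_21PHAS_7744, moved in the same libraries but less. It had 74.0, 20.1 and 25.8 CPM in ago18HM-5mm, 17.3, 16.1 and 48.3 CPM in ago18HT-5mm, 32.7 and 68.3 CPM in ago18HM-2mm, and 14.7, 22.6 and 62.8 CPM in ago18HT-2mm. The abundance of B73_21PHAS_7744 over that of B73_21PHAS_7747 was 1.66, 0.367 and 0.198 in the ago18HM-5mm replicates, 0.382, 0.231 and 1.87 in the ago18HT-5mm replicates, 0.306 and 1.01 in the ago18HM-2mm replicates, and 0.462, 0.542 and 0.753 in the ago18HT-2mm replicates. Whether reads were counted at both loci was not tested. The remaining family loci, B73_21PHAS_7751 and B73_21PHAS_7752, did not have the same 4 highest libraries, and their r with the members was 0.171 and 0.769.

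**Figure D5:**
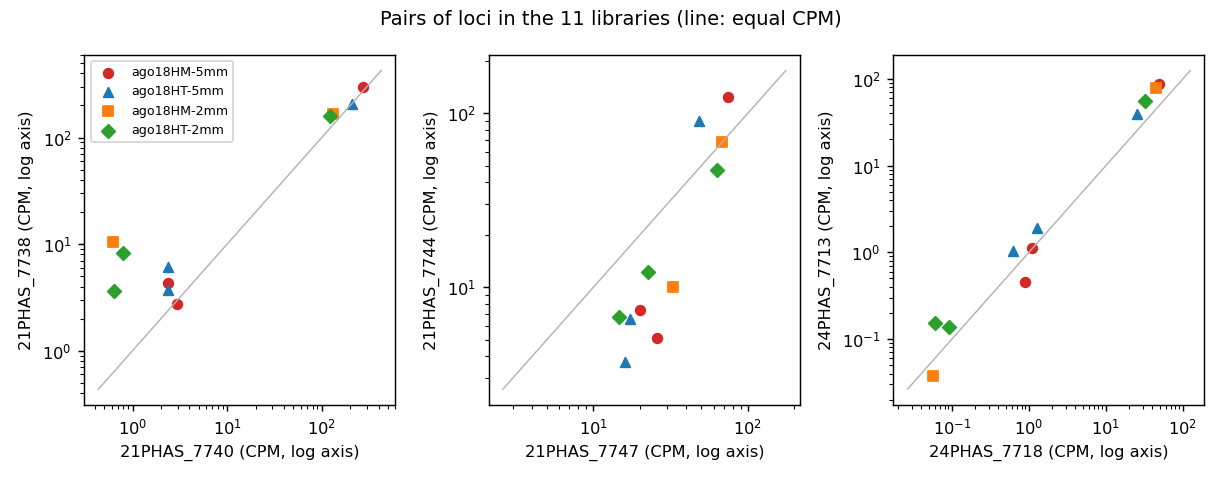
CPM (log axes) of 3 pairs of loci in the 11 libraries, coloured by group, with a line of equal CPM: 21PHAS_7738 against 21PHAS_7740, 21PHAS_7744 against 21PHAS_7747, and 24PHAS_7713 against 24PHAS_7718. The first pair share a major RNA and meet near the line in the 4 high libraries, while at 2 mm the low values of 21PHAS_7738 exceed those of 21PHAS_7740 by 5.71 to 16.9 times.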

How the data were processed

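The deposited table holds CPM of 659 PHAS loci in 11 libraries. The authors mapped the reads to B73 RefGen_v5 with Bowtie 1.3.1, counted them with featureCounts 1.6.3 with multi-mapping reads included, and made the CPM values with edgeR 4.0.2. The denominator and the sizes of read counted are not given in the sources used here. Reads were recovered by dividing by the smallest step of each library, and 100% of values came out whole within 0.01 read.

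Positions, classes and major RNAs came from the study's locus table, and gene positions from RefSeq for the same assembly. Groups came from the labels. The members, lists and rules were chosen with earlier results of these data known. The main test was limma 3.58.1 in R 4.3.3 (two-sided, 4 group means, trend, all 11 libraries, pseudocount 1), and all 659 loci passed the filter of 1 CPM in 2 libraries. It was tested on simulated counts with the same dispersion at all loci and no on-off libraries. That run therefore does not show how the fit behaves at loci like the members. Loci named were the members, neighbours that differed from them, the 5 most alike loci and loci sharing a major RNA. The fits were repeated without each library in turn, with a replicate block, under median ratio scaling or 21-PHAS centring, with pseudocount 0.1 or 5, and with the filter dropped or set at a mean CPM of 10. State thresholds were also varied. Chosen after seeing the data were voom on recovered reads, alternatives for the neighbour count, and the count of loci with the same highest library within each group. P-values measure the spread between plants of these groups only.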

Additional observations from a re-analysis of the deposited data

How the results depend on the processing

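In the 4 comparisons, 0 members were called under each alternative run, leaving out any library included (0 to 0), with a lowest limma adjusted p of 0.632 over the other settings and 0.351 over the left-out libraries. Since the members were chosen for spread within groups, these runs do not test for a lack of difference. The members' log2 differences depended on single libraries. That of B73_21PHAS_7740 at 2 mm, 1.03 with all libraries, was -2.14 without ago18HM-2mm replicate 2 and 4.20 without ago18HM-2mm replicate 1. The number of intermediate values was 3 instead of 8 with low set at 10% or less. The median SD within groups was 3.89 with a pseudocount of 0.1 and 2.16 with 5, and 2.61 to 3.24 without 1 library. The numbers of high, intermediate and low values were 19 to 25, 7 to 8 and 37 to 44 without 1 library, and the neighbours with the same 4 highest libraries numbered 8 to 9. Over all loci, leaving out 1 library changed the calls to 69 to 144 at 2 mm (125 with all), 74 to 185 between lengths in ago18HM (159; 105 with 21-PHAS centring) and 46 to 105 in ago18HT (83). Of 15 same-numbered pairs of libraries, 5 deviated together (r above 0.1), against 15 of 30 others. The deviations are from group means and depend on one another, so they cannot settle whether replicate numbers pair the samples. With the replicate block, 0 members were called in any comparison. edgeR on recovered reads was not run. The low values of the members rest on 1 to 559 reads, so ratios against them are imprecise where reads were few.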
